A study of Homo sapiens with 30 samples.

Results

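The genes described here are 39 heat shock chaperones and their helpers that work in the cytosol, the nucleus or the mitochondria of human cells. They were taken by symbol from the rows of the deposited table of 60675 Ensembl gene identifiers. All 39 symbols were found, each in 1 row, and all 39 passed the filter on low counts. They comprise 7 HSP70 and HSP110 genes, 2 HSP90 genes, 6 HSP40 genes, 3 small heat shock protein genes, 2 genes of the mitochondrial chaperonin, 3 BAG genes, 2 heat shock factor genes, 6 HSP90 co-chaperone genes and 8 subunits of the cytosolic chaperonin CCT. The cells were A549, an established human lung carcinoma line, and RNA was sequenced in 30 libraries after 24 h of treatment. Soshiho-tang and Yijin-tang, herbal formulas given as ethanol extracts at 20, 100 or 500 µg/mL, had 3 libraries at each dose. Okbyeongpung-san, extracted in the same way and given at the same doses, had 2 libraries at each dose. Soyo-san, a further ethanol extract at these doses, had a single library at each, and no test was made on it. The control, called vehicle, was 0.1% DMSO per the labels, with 3 libraries. The solvent content of the extract groups is not given in the labels, and the series text names another DMSO content for vehicle. Whether replicates came from separate cultures is not stated in the labels, and p-values therefore measure only the spread between libraries, which may be technical.

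Heat shock proteins bind proteins that are unfolded or not yet folded, keep them from clumping and help them fold with energy from ATP. HSP40 proteins hand clients to HSP70, nucleotide exchange factors such as HSP110 and BAG proteins release them, and HSP90 with its co-chaperones finishes the folding of kinases, steroid receptors and other clients. The transcription factor HSF1 drives many of these genes when proteins unfold, and tumour cell lines such as A549 express many of them strongly without any heat.

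Libraries held between 19833106 and 38008449 counts. The 3 vehicle libraries were the shallowest, at up to 22327632 counts, against at least 24560758 in every extract library. They also stood apart in the share of counts on the 13 messenger RNAs of the mitochondrial genome, which was 6.22% to 9.89% in the extract libraries, against 10.5% to 10.9% in vehicle. Every difference from vehicle below rests on the same 3 vehicle libraries, and the part of their depth and mitochondrial share in it was not tested. Between the 500 and 20 µg/mL libraries of Soshiho-tang this share overlapped, at 6.68% to 7.29% and 6.99% to 8.18%. Titles give batch D for the Soyo-san libraries and for replicate 3 of each Okbyeongpung-san dose, and batch E for all others. The alveolar markers NKX2-1, SFTPB and SFTPC were under 1 CPM (counts scaled to a common library size) in every library, while KRT8, KRT18, AKR1B10 and ALDH1A1, which are high in A549, each had a median of at least 2499 CPM. All 6 endothelial markers were under 1 CPM in every library. In these bulk samples fewer cells and less RNA per cell cannot be told apart.

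HSF1 binds heat shock elements, in which units of GAA and TTC alternate with 2 bases between them. The 250 bases upstream of each start site in the RefSeq promoter table (build GRCh38.p14) were searched for a run of 3 units, written TTCNNGAANNTTC or GAANNTTCNNGAA, which are reverse complements of each other, so that both strands were covered. Overlapping matches were counted separately. Such a run stood upstream of 6 of the 35 members with an entry (17.1%), against 55 of 11865 tested genes (0.464%) and 155 of all 35116 windows (0.441%). The 6 were HSP90AA1, HSP90AB1, HSPA8, HSPD1, DNAJB6 and CHORDC1. These sites are shown, 30 bases each on the strand of the gene, because they hold the run of 3 units that was searched for; capitals mark the matched run.
HSP90AA1: gagggttcTTCCGGAAGGTTCgggaggctt
HSP90AB1: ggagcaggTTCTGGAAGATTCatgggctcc
HSP90AB1, second site: tgagattgTTCTGGAAGCTTCtggattctg
HSPA8: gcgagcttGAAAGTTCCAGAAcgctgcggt
HSPA8, second site: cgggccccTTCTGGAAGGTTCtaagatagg
HSPD1: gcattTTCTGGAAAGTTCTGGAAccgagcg
DNAJB6: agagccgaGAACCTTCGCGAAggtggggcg
CHORDC1: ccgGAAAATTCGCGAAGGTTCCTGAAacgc
On GRCh38.p14 they lie at chr14:102087111-102087140 on the minus strand for HSP90AA1 and, on the plus strand, at chr6:44247770-44247799 and chr6:44247823-44247852 for HSP90AB1. The HSPA8 sites lie at chr11:123062345-123062374 and chr11:123062170-123062199 on the minus strand. The HSPD1 site lies at chr2:197500061-197500090 on the minus strand, the DNAJB6 site at chr7:157336865-157336894 on the plus strand and the CHORDC1 site at chr11:90223083-90223112 on the minus strand. The runs of CHORDC1 and HSPD1 are longer than 3 units and hold 3 and 2 overlapping matches.

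A pair of units, TTCNNGAA or GAANNTTC, each its own reverse complement and contained in every run of 3, stood upstream of 18 of the 35 members (51.4%), against 11.7% of the tested genes. HSPA1A and DNAJB1 held only pairs, and their upstream bases up to the first annotated untranslated base are shown with the pairs in capitals, since HSPA1A was the member lowered most at 500 against 20 µg/mL of Soshiho-tang and DNAJB1 is the main HSP40 partner of HSP70.
HSPA1A: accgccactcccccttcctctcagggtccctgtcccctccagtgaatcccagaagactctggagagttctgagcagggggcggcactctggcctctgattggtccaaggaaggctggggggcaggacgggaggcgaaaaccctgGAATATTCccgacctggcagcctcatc
DNAJB1: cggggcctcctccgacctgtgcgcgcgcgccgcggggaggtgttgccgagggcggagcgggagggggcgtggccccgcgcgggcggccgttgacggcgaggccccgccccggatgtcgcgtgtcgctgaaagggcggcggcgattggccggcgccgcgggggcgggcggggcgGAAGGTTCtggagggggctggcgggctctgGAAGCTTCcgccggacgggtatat
They lie at chr6:31815293-31815463 on the plus strand and chr19:14518421-14518647 on the minus strand of GRCh38.p14. HSPH1 and HSPE1 held no run of 3 units in the window, and HSF1, CCT6A, CRYAB and FKBP4 have no entry. The HSPE1 window begins at chr2:197500129 on the plus strand, so the HSPD1 site shown above lies upstream of it and was not searched for HSPE1. A match is a description of the letters, and binding was not measured here.

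In vehicle the members spanned a wide range of levels. On a per-length scale, TPM (counts per transcript length, scaled to a common sum), HSP90AA1 had 1591 ± 23.1, HSP90AB1 1581 ± 44.7 and HSPA8 1560 ± 40.2 in vehicle (SD, n = 3), so that the 3 highest members did not differ beyond their spread. HSPD1 followed with 937 and HSPB1 with 839 TPM. At the other end stood CRYAB with 10.4, HSPB8 with 9.17, HSPA4L with 7.40 and DNAJA4 with 0.389 TPM, and DNAJA4 had as few as 3 counts in a library, which left its fold changes with standard errors of about 0.5 on the log2 scale. Together the 39 genes took 1.22% ± 0.0303 of the scaled counts at 500 µg/mL of Soshiho-tang, against 1.52% ± 0.0290 at 20 µg/mL and 1.60% ± 0.00922 in vehicle (SD, n = 3 each). At 500 µg/mL of Yijin-tang the share was 1.51% ± 0.0473 (SD, n = 3) and of Okbyeongpung-san 1.42% ± 0.00893 (SD, n = 2).

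Most of these genes were lower in cells given 500 µg/mL of Soshiho-tang, whether set against vehicle or against 20 µg/mL of the same extract. Against vehicle 23 members were lower and 1, HSPA9, was higher at an adjusted p below 0.05, in edgeR's quasi-likelihood test with Benjamini-Hochberg adjustment over all 17459 genes tested. Of all tested genes 33.1% were called, 16.0% lower and 17.2% higher. The median log2 fold change was -0.30 over the members and 0.01 over all tested genes. Against 20 µg/mL, where vehicle plays no part, 29 members were lower and 1 higher, while 20.6% of all genes were called, 10.2% lower and 10.3% higher. The median there was -0.23 over the members and 0.00 over all genes. In 33 of the 39 members all 3 libraries at 500 µg/mL lay below all 3 at 20 µg/mL, and 22 members were lower in both comparisons. Neither number was counted over all tested genes, so how far it sets the members apart is not known. CCT3 lost its call against vehicle when a single library was left out, and BAG2, CCT3, CCT4, CCT5, CCT6A, HSPB1 and HSPB8 lost theirs against 20 µg/mL.

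**Figure D1:**
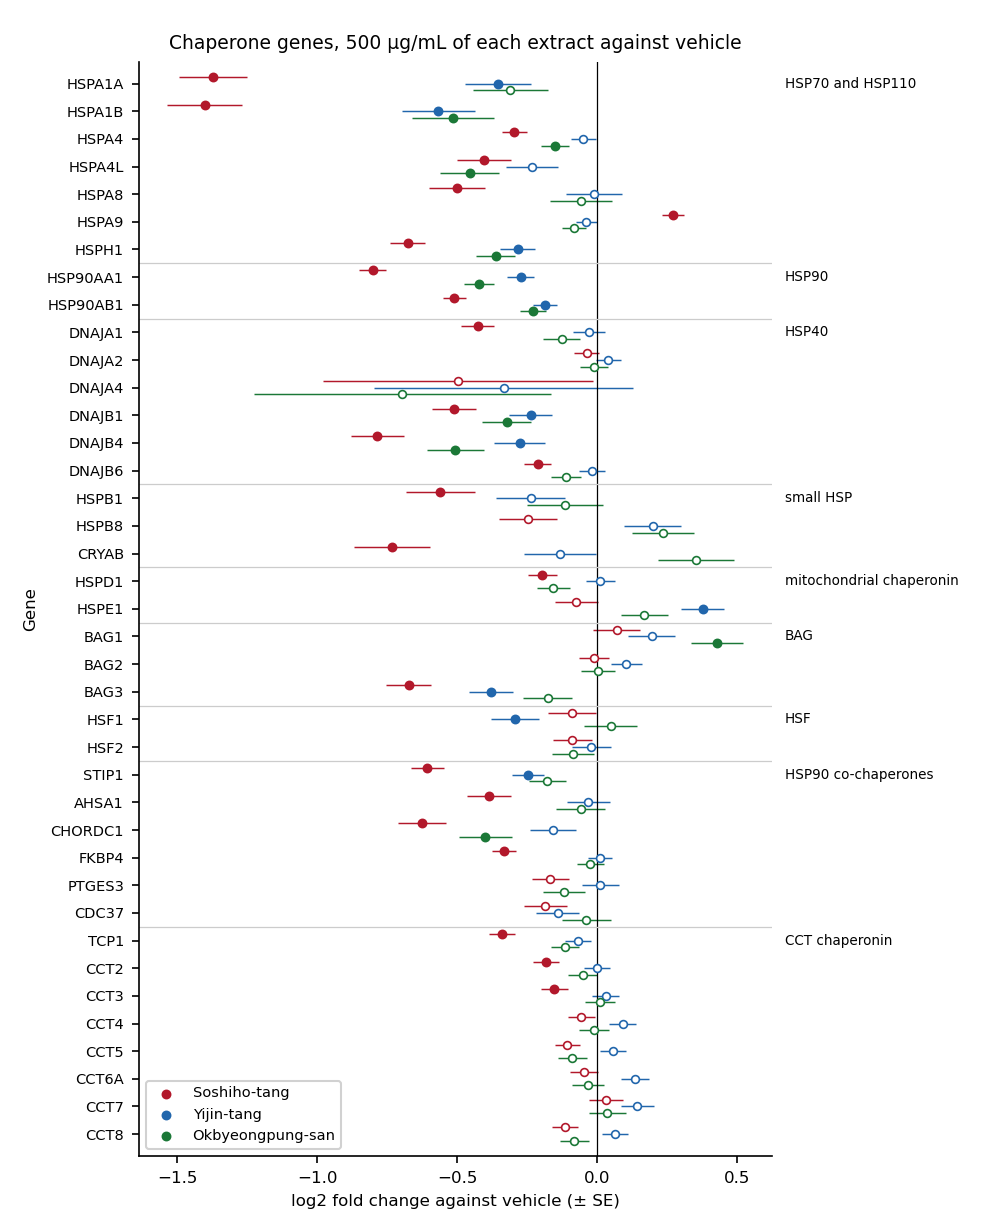
Log2 fold change of each of the 39 genes at 500 µg/mL of Soshiho-tang (red), Yijin-tang (blue) and Okbyeongpung-san (green) against vehicle, with bars of 1 standard error from edgeR and filled points where the adjusted p was below 0.05. Red points reach to -1.40 for HSPA1B, and HSPA9 is the only red filled point right of 0.

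**Figure D2:**
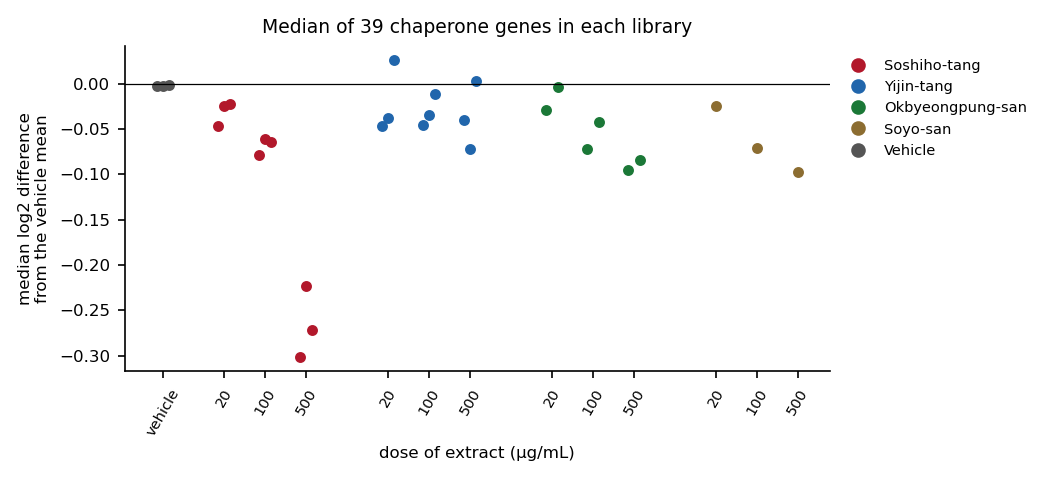
Median over the 39 genes of the log2 difference from the vehicle mean, in each of the 30 libraries by extract and dose in µg/mL. The 3 Soshiho-tang libraries at 500 µg/mL lie between -0.30 and -0.22, and all other libraries between -0.10 and 0.03.

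Among the HSP70 and HSP110 genes the stress-inducible pair HSPA1A and HSPA1B showed the largest differences. HSPA1A had 116, 99.5 and 113 CPM in the Soshiho-tang libraries at 500 µg/mL, against 204, 255 and 246 CPM at 20 µg/mL and 287, 282 and 282 CPM in vehicle. HSPA1B had 76.7, 66.5 and 79.0 CPM at 500 µg/mL, against 119, 148 and 149 CPM at 20 µg/mL and 202, 187 and 198 CPM in vehicle. In both genes every library at 500 µg/mL lay below every library of the other 2 groups. The log2 fold change of HSPA1A was -1.37 ± 0.12 (SE) against vehicle, or 0.386 of the vehicle level, with an adjusted p of 6.81e-09. Against 20 µg/mL it was -1.10 ± 0.12 with an adjusted p of 2.89e-07. For HSPA1B the log2 fold changes were -1.40 ± 0.13 against vehicle (adjusted p 2.16e-08) and -0.91 ± 0.13 against 20 µg/mL (adjusted p 1.86e-05). These neighbouring genes on chromosome 6 have nearly the same sequence: 69.9% of the 100-base windows of the HSPA1A transcript also occur in HSPA1B, so the split of reads between them is uncertain. Their sum does not depend on the split and averaged 184 ± 15.2 CPM at 500 µg/mL, against 374 ± 43.9 at 20 µg/mL and 480 ± 9.74 in vehicle (SD, n = 3 each).

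HSPA8, the constitutive HSP70 that clears and folds proteins in unstressed cells, had 1317, 1234 and 1454 CPM at 500 µg/mL of Soshiho-tang, against 1687, 1939 and 2075 CPM at 20 µg/mL and 1915, 1884 and 1874 CPM in vehicle. All libraries at 500 µg/mL lay below those of both other groups, while the 20 µg/mL libraries spread over the whole vehicle range. In the 6 dose groups of Soshiho-tang and Yijin-tang replicate 3 held the highest HSPA8 level in 6 and replicate 1 the lowest in 5, and the same counts held for HSPH1. Its log2 fold changes were -0.50 ± 0.10 against vehicle (adjusted p 0.000427) and -0.51 ± 0.10 against 20 µg/mL (adjusted p 0.000605). HSPH1, the HSP110 that exchanges nucleotide on HSP70, was lower, at a log2 fold change of -0.68 ± 0.06 and -0.46 ± 0.06 in the same 2 comparisons. HSPA4, another HSP110, was lower, at a log2 fold change of -0.30 and -0.23, and its testis-enriched relative HSPA4L by -0.40 against vehicle, with -0.15 and an adjusted p of 0.285 against 20 µg/mL.

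HSPA9, the mitochondrial HSP70 that pulls proteins through the inner membrane, was higher, and its values and those of HSPE1 were chosen for display after they were seen. HSPA9 had 696, 723 and 734 CPM at 500 µg/mL of Soshiho-tang, against 561, 551 and 560 CPM at 20 µg/mL and 588, 599.9 and 598 CPM in vehicle. All libraries at 500 µg/mL lay above those of both other groups. The log2 fold changes were 0.27 ± 0.04 against vehicle (adjusted p 6.56e-06) and 0.36 ± 0.04 against 20 µg/mL (adjusted p 1.21e-07).

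**Figure D3:**
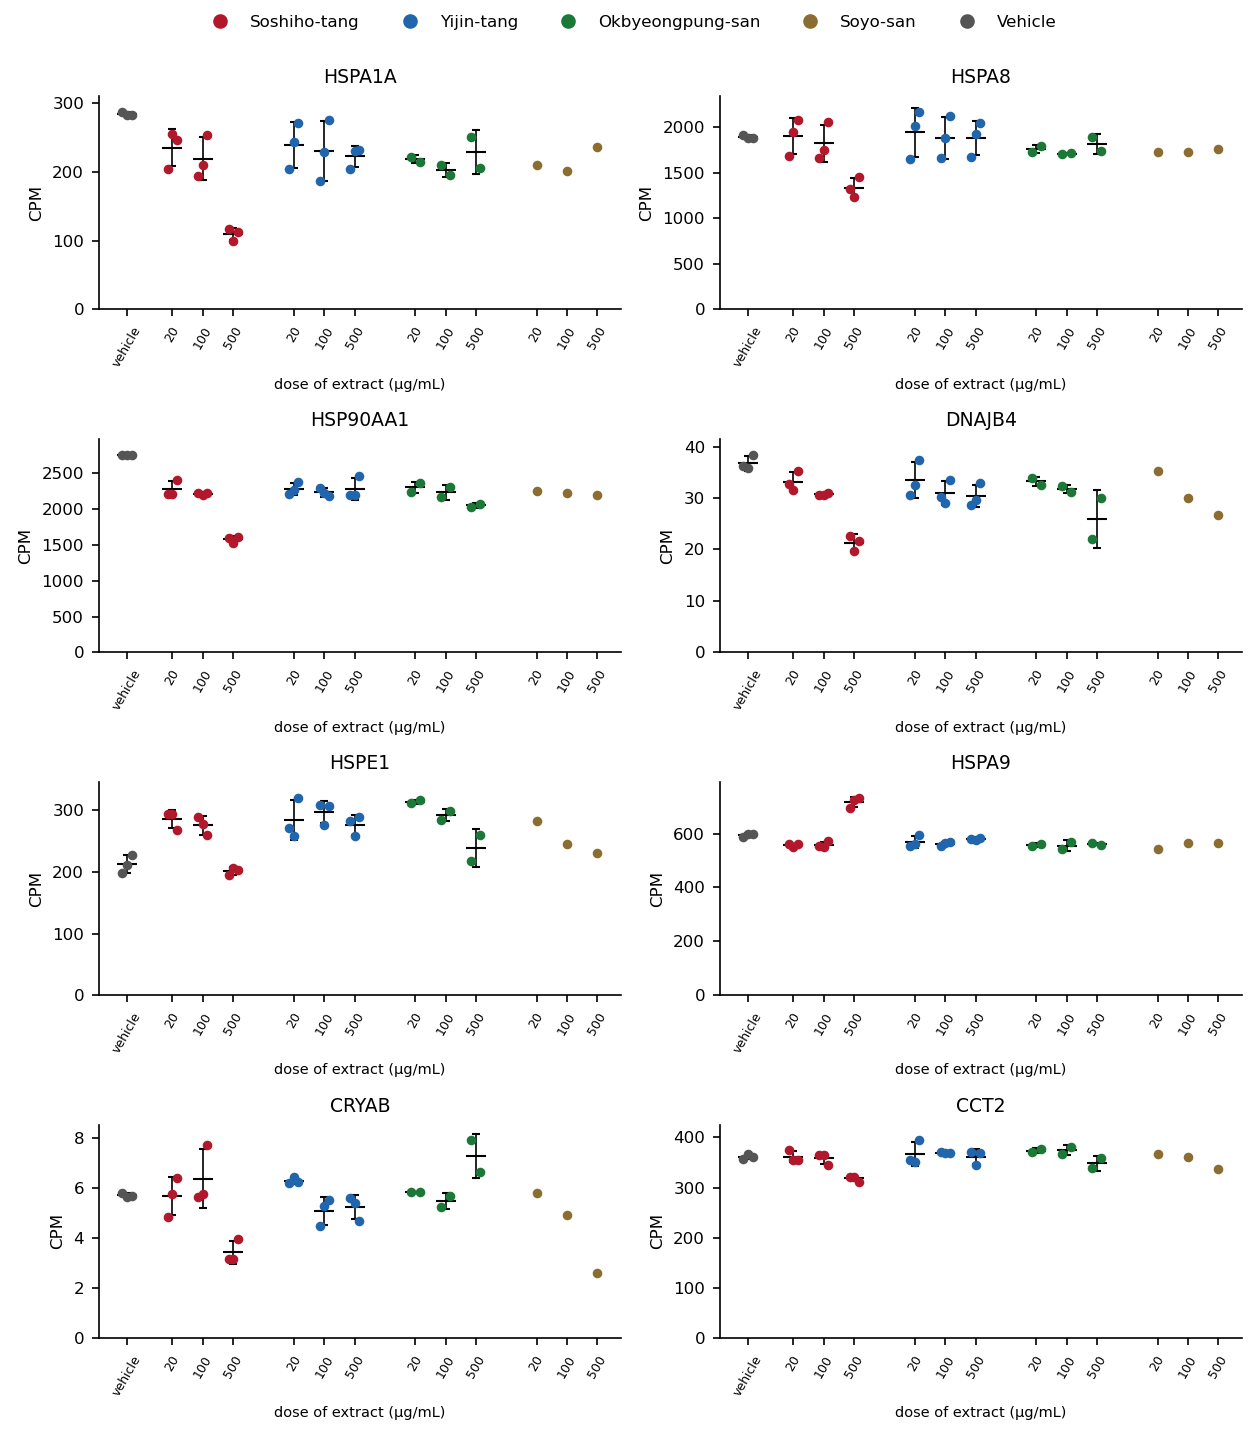
CPM of 8 genes in every library, by extract and dose in µg/mL, with vehicle at the left; black dashes and bars give the mean and SD of groups with 2 or 3 libraries, and each axis starts at 0. The group means of HSPA1A, HSPA8, HSP90AA1 and DNAJB4 are lowest at 500 µg/mL of Soshiho-tang, where that of HSPA9 is highest, while HSPE1 lies near vehicle there and above it at 20 and 100 µg/mL.

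Both cytosolic HSP90 genes were lower. HSP90AA1, the inducible isoform, had 1591, 1523 and 1611 CPM at 500 µg/mL of Soshiho-tang, against 2213, 2211 and 2401 CPM at 20 µg/mL and 2745, 2755 and 2747 CPM in vehicle. HSP90AB1, the constitutive isoform, had 1489, 1422 and 1472 CPM at 500 µg/mL, against 1882, 1876 and 1889.8 CPM at 20 µg/mL and 1999, 2099 and 2146 CPM in vehicle. In both genes the 3 groups did not overlap. HSP90AA1 had the smallest adjusted p among the members, 1.08e-11, with a log2 fold change of -0.80 ± 0.05 against vehicle and -0.53 ± 0.05 against 20 µg/mL. For HSP90AB1 these were -0.51 ± 0.04 and -0.36 ± 0.04. Both carry the runs of 3 units shown above, as do HSPA8, HSPD1, DNAJB6 and CHORDC1, whose log2 fold changes at 500 against 20 µg/mL spread from -0.51 for HSPA8 to -0.21 for DNAJB6.

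Of the 6 HSP40 genes, whose proteins start the ATPase of HSP70, 4 were lower in both comparisons: DNAJA1, DNAJB1, DNAJB4 and DNAJB6. DNAJB1 had 109, 106 and 115 CPM at 500 µg/mL of Soshiho-tang, against 134, 144 and 143 CPM at 20 µg/mL and 159, 157 and 155 CPM in vehicle. DNAJB4 had 22.7, 19.6 and 21.7 CPM at 500 µg/mL, against 32.8, 31.5 and 35.3 CPM at 20 µg/mL and 36.1, 35.8 and 38.4 CPM in vehicle. Both genes were lower in every library at 500 µg/mL than in any library at 20 µg/mL of Soshiho-tang or in vehicle. The log2 fold change of DNAJB1 was -0.51 ± 0.08 against vehicle and -0.35 ± 0.08 against 20 µg/mL. That of DNAJB4 was -0.79 ± 0.09 and -0.64 ± 0.09. DNAJA2, a general partner of HSPA8, had -0.04 ± 0.05 and -0.04 ± 0.04 with overlapping libraries, and DNAJA4 was too low in count to show a change of this size.

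The small heat shock proteins hold unfolding proteins without using ATP. HSPB1, also called HSP27, had 259.7, 243 and 260.5 CPM at 500 µg/mL of Soshiho-tang, against 331, 374 and 319 CPM at 20 µg/mL and 358, 398 and 371 CPM in vehicle. CRYAB, alpha-B crystallin, had 3.15, 3.18 and 3.95 CPM at 500 µg/mL, against 4.86, 5.77 and 6.38 CPM at 20 µg/mL and 5.82, 5.66 and 5.69 CPM in vehicle. Libraries at 500 µg/mL lay below those at 20 µg/mL of Soshiho-tang and those in vehicle in both genes. HSPB1 was lower, at a log2 fold change of -0.56 ± 0.12 against vehicle and -0.42 ± 0.12 against 20 µg/mL, where its call was lost in turn without replicate 2 of either dose. CRYAB was lower, at a log2 fold change of -0.73 ± 0.14 and -0.73 ± 0.13, from few reads, and it overlaps HSPB2 on the opposite strand. HSPB8, the partner of BAG3, was lower, at a log2 fold change of -0.34 ± 0.10 against 20 µg/mL (adjusted p 0.0168) and had -0.25 ± 0.10 against vehicle (adjusted p 0.0747).

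HSPD1 and HSPE1 encode the 2 parts of the mitochondrial chaperonin, the folding chamber and its lid. HSPD1 had 1007, 969 and 985 CPM at 500 µg/mL of Soshiho-tang, against 1175, 1123 and 1141 CPM at 20 µg/mL and 1122, 1121 and 1152 CPM in vehicle. The log2 fold change was -0.20 ± 0.05 against vehicle and -0.21 ± 0.05 against 20 µg/mL, with no overlap in either. HSPE1 had 194, 207 and 203 CPM at 500 µg/mL, against 294, 294 and 268 CPM at 20 µg/mL and 198, 211 and 228 CPM in vehicle. It was lower than at 20 µg/mL, at a log2 fold change of -0.50 ± 0.08 (adjusted p 3.26e-05), while against vehicle it had -0.07 ± 0.08 (adjusted p 0.491) with overlapping libraries. HSPE1 was also higher than vehicle in 7 of the 9 comparisons of an extract dose with vehicle, with log2 fold changes of 0.38 to 0.56. Of its 100-base windows 17.0% occur in other genes, 11.0% in the read-through gene HSPE1-MOB4.

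BAG3, which links HSP70 to autophagy, had 65.5, 68.4 and 74.4 CPM at 500 µg/mL of Soshiho-tang, against 86.5, 90.5 and 99.7 CPM at 20 µg/mL and 108, 115 and 109 CPM in vehicle. The groups did not overlap, and the log2 fold change was -0.67 ± 0.08 against vehicle and -0.41 ± 0.08 against 20 µg/mL. BAG1 and BAG2, other nucleotide exchange factors of HSP70, were not called against vehicle, with log2 fold changes of 0.07 ± 0.09 and -0.01 ± 0.06. BAG2 was lower than at 20 µg/mL, at a log2 fold change of -0.16 ± 0.05.

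Neither heat shock factor gene was called at 500 µg/mL of Soshiho-tang. HSF1 had 80.5, 86.0 and 82.0 CPM at 500 µg/mL of Soshiho-tang, against 74.4, 70.6 and 67.3 CPM at 20 µg/mL and 84.9, 89.1 and 90.5 CPM in vehicle. All libraries at 500 µg/mL lay above those at 20 µg/mL, with a log2 fold change of 0.23 ± 0.09 and an adjusted p of 0.0590. HSF1 passed the threshold with the replicate block (adjusted p 0.0359), the transcript length offset (0.0351), batch E alone (0.00469), the groups compared alone (0.00490) and no low-count filter (0.0198). It missed it by DESeq2 (0.0517) and without any 1 library (0.0548 to 0.185), at log2 fold changes of 0.20 to 0.27 throughout. Against vehicle the groups overlapped and the value was -0.09 ± 0.09 (adjusted p 0.456). HSF2 had -0.09 ± 0.07 against vehicle and -0.11 ± 0.07 against 20 µg/mL and was not called in either.

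Of the 6 HSP90 co-chaperone genes 4 were lower against both vehicle and 20 µg/mL. STIP1, which hands clients from HSP70 to HSP90, was lower, at a log2 fold change of -0.61 ± 0.06 and -0.41 ± 0.06. CHORDC1, an HSP90 partner, was lower, at a log2 fold change of -0.62 ± 0.09 and -0.50 ± 0.08. AHSA1, which speeds the HSP90 ATPase, was lower, at a log2 fold change of -0.39 ± 0.08 in both, and FKBP4, which carries steroid receptors, by -0.33 ± 0.04 and -0.36 ± 0.04. PTGES3, also called p23, and CDC37, the kinase adaptor, were not called, although in both genes all 3 libraries at 500 µg/mL lay below those of either group, with log2 fold changes between -0.09 and -0.18.

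The CCT chaperonin folds actin and tubulin, and none of its 8 subunit genes differed by more than 0.34 in log2 fold change in either comparison. Against 20 µg/mL 7 of 8 were lower, with log2 fold changes from -0.32 for TCP1 to -0.13 for CCT4, and the exception, CCT7, had -0.13 with an adjusted p of 0.128. Against vehicle 3 of 8 were lower, TCP1, CCT2 and CCT3, and estimates spread from -0.34 for TCP1 to 0.03 for CCT7. CCT2 had 322, 321 and 311 CPM at 500 µg/mL of Soshiho-tang, against 374, 355 and 356 CPM at 20 µg/mL and 357, 367 and 361 CPM in vehicle. It was lower in all 3 libraries, at a log2 fold change of -0.18 ± 0.05 in each comparison.

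**Figure D4:**
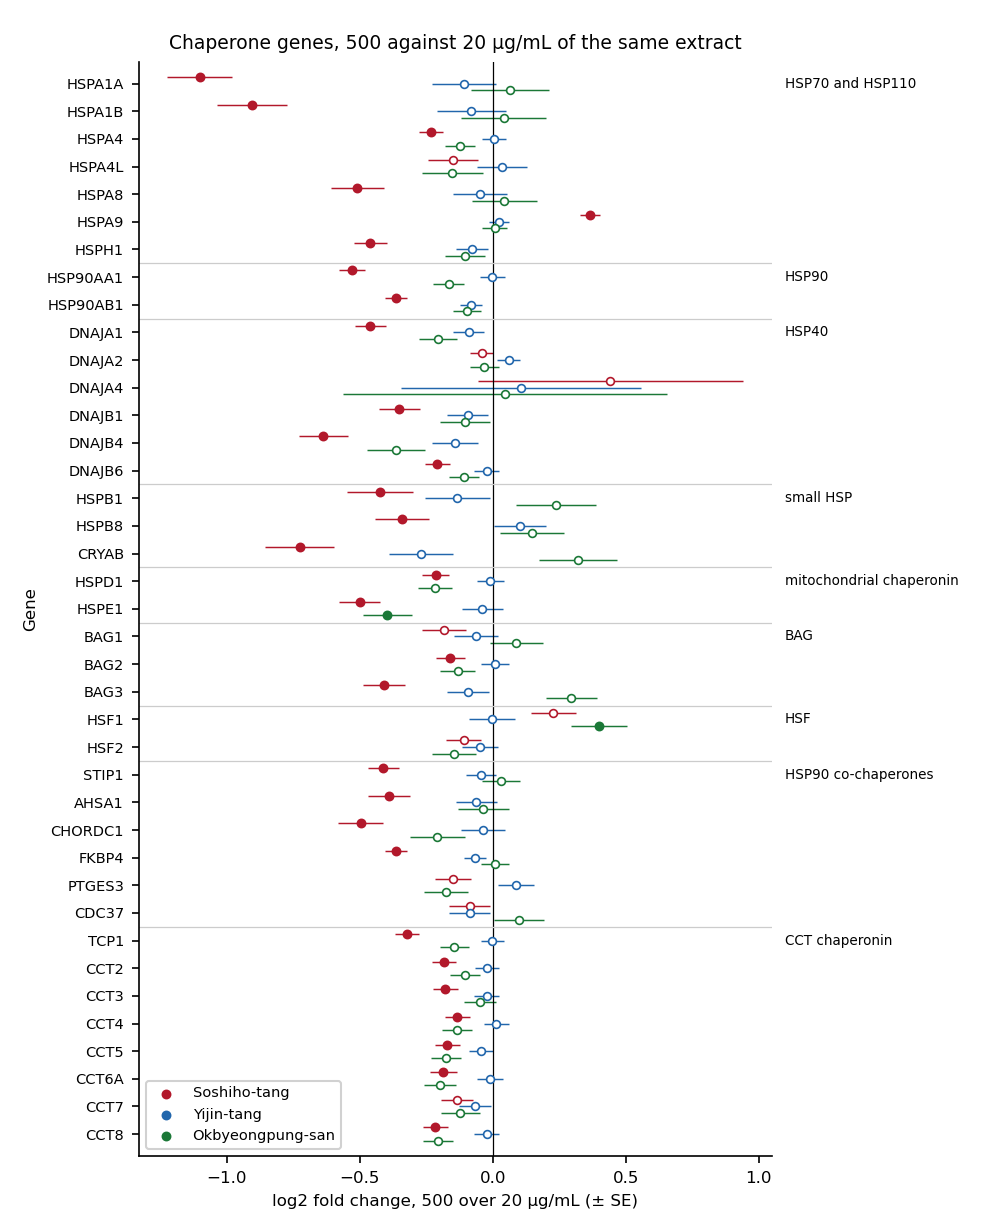
Log2 fold change of each of the 39 genes at 500 over 20 µg/mL of Soshiho-tang (red), Yijin-tang (blue) and Okbyeongpung-san (green), with bars of 1 standard error and filled points where the adjusted p was below 0.05. Red has 30 filled points, blue 0 and green 2.

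Within Yijin-tang no difference between 500 and 20 µg/mL passed the test in any member. Of 39 members 0 were called by edgeR, by DESeq2 and by edgeR without the low-count filter, 1 had an unadjusted p under 0.05, and 0.705% of all tested genes were called, 0.418% lower and 0.286% higher. The median log2 fold change was -0.04, and the estimates lay between -0.27 for CRYAB and 0.11 for DNAJA4, with standard errors of 0.062 at the median. HSPA1A had 205, 230.2 and 232 CPM at 500 µg/mL of Yijin-tang, against 204, 243 and 271 CPM at 20 µg/mL. HSP90AA1 had 2189.7, 2194 and 2453 CPM at 500 µg/mL, against 2202, 2259.7 and 2371 CPM at 20 µg/mL. In both genes the libraries of the 2 doses overlapped.

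Within Okbyeongpung-san 1 member was lower and 1 higher at 500 against 20 µg/mL, while 1.59% of all genes were called, 0.613% lower and 0.979% higher. HSPE1 had 217 and 260.5 CPM at 500 µg/mL, against 312 and 316 CPM at 20 µg/mL, a log2 fold change of -0.40 ± 0.09 (adjusted p 0.0284). HSF1 had 108 and 74.1 CPM at 500 µg/mL, against 68.9 and 68.9 CPM at 20 µg/mL, a log2 fold change of 0.40 ± 0.10 (adjusted p 0.0486). The higher HSF1 value came from replicate 2 at 500 µg/mL, the deepest library, whose mitochondrial share of 9.89% was the highest of the extract libraries. Without that library the HSF1 difference was 0.11 and the HSPE1 difference -0.27, and 0 members were called. Leaving out either 20 µg/mL library or fitting the 2 groups alone also gave 0 calls, although the differences were then 0.39 to 0.41 for HSF1 and -0.41 to -0.39 for HSPE1. Without replicate 3 at 500 µg/mL 17 members were called. The 2 libraries of that dose also differed for HSPB1, with 424 and 268 CPM, and for DNAJB4, with 22.0 and 29.9 CPM. Replicate 2 is of batch E and replicate 3 of batch D at each dose, so library and batch cannot be told apart here.

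At 500 µg/mL the extracts were also compared directly. Soshiho-tang had 27 members lower and 1 higher than Yijin-tang, with 12.6% of all genes called, 6.29% lower and 6.31% higher, and a member median of -0.25. It had 19 members lower and 1 higher than Okbyeongpung-san, with 18.7% of all genes called, 9.55% lower and 9.14% higher, and a member median of -0.19. Of the Okbyeongpung-san libraries 1 is of batch D, while those of Soshiho-tang are all of batch E, so batch differs in part between these extracts. HSPA9 was the higher member in both, with log2 fold changes of 0.31 ± 0.04 against Yijin-tang and 0.35 ± 0.04 against Okbyeongpung-san. HSPA1A was lower, at a log2 fold change of -1.02 ± 0.12 and -1.06 ± 0.13, and HSP90AA1 by -0.53 ± 0.05 and -0.38 ± 0.05. CRYAB had 3.15, 3.18 and 3.95 CPM in Soshiho-tang libraries, against 7.90 and 6.65 CPM in Okbyeongpung-san libraries, a log2 difference of -1.09 ± 0.14 (adjusted p 4.28e-06). Of the CCT subunits 7 were lower than in Yijin-tang and 2 lower than in Okbyeongpung-san. In all 15 members were lower at 500 µg/mL of Soshiho-tang against vehicle, 20 µg/mL, Yijin-tang and Okbyeongpung-san alike, in comparisons that share the Soshiho-tang libraries. When any 1 library was left out this number was 13 to 15, and 10 members were among them in every such fit: HSPA1A, HSPA1B, HSPH1, HSP90AA1, HSP90AB1, DNAJA1, CRYAB, STIP1, FKBP4 and TCP1. For these leave-one-out numbers only the comparisons that use the group of the left-out library were refitted, and the others kept their main calls. Leaving out a library of any other group could not change the number. Fitted with the groups compared alone, 7 members were lower in all 4. The share of all tested genes that were lower in all 4 comparisons was not counted. Among the calls against Okbyeongpung-san, HSPA4 had -0.07 and HSPE1 -0.10 without replicate 3 of that extract, which leaves 1 of its libraries. Without its replicate 2, HSPB1 had -0.07, CCT3 -0.11, AHSA1 -0.24, BAG1 -0.33, HSPB8 -0.37 and HSPA8 -0.38. CCT3, HSPA4 and HSPE1 lost their calls against Okbyeongpung-san when any 1 Soshiho-tang library at 500 µg/mL was left out.

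The dose effects of Soshiho-tang and Yijin-tang differed by the test of the difference itself in 14 members, 13 with a lower value in Soshiho-tang, while 4.04% of all genes passed, 1.76% with a lower and 2.27% with a higher value. HSPA1A differed by -0.99 ± 0.17 (adjusted p 0.000601), HSPA1B by -0.83 ± 0.19 and HSP90AA1 by -0.53 ± 0.07 (adjusted p 1.66e-05). HSPA9 differed by 0.34 ± 0.05 (adjusted p 0.000239). The difference of HSPA8 was -0.46 ± 0.14 and missed the threshold, with an adjusted p of 0.0696.

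Lower doses and the other extracts also differed from vehicle in a smaller number of members, and these comparisons share the 3 vehicle libraries. Soshiho-tang had 7 members lower and 1 higher at 20 µg/mL, with 8.02% of all genes called, 3.96% lower and 4.06% higher. At 100 µg/mL it had 8 lower and 2 higher, with 10.8% of all genes called, 5.19% lower and 5.57% higher. Yijin-tang had 6 lower and 2 higher at 20 µg/mL, where 10.2% of all genes were called, 5.16% lower and 5.09% higher. It had 7 lower and 3 higher at 100 µg/mL, where 14.7% were called, 6.82% lower and 7.89% higher. It had 10 lower and 1 higher at 500 µg/mL, where 15.7% were called, 7.56% lower and 8.12% higher. Okbyeongpung-san had 6 lower and 2 higher at 20 µg/mL, where 10.2% of all genes were called, 4.95% lower and 5.21% higher. At 100 µg/mL 9 were lower and 1 higher, with 9.49% of all genes called, 4.74% lower and 4.75% higher. At 500 µg/mL 9 were lower and 1 higher, with 14.9% called, 7.76% lower and 7.19% higher. Batch E alone left 1 Okbyeongpung-san library per dose, with fewer calls at 20 and 100 µg/mL, so batch and group size cannot be told apart there. HSPA1B, HSPH1 and HSP90AA1 were lower in all 9 comparisons with vehicle, BAG3 and STIP1 in 8, HSP90AB1 and HSF1 in 6 and DNAJB1 in 5, while 15 members were lower in 0. At 20 µg/mL 6 members were lower with each of the 3 extracts: HSPA1B, HSPH1, HSP90AA1, BAG3, STIP1 and HSF1. With Soshiho-tang and with Yijin-tang, all of them but HSP90AA1 lost this call in some fit that left out 1 library. STIP1 with Soshiho-tang, and HSPH1 and HSF1 with Yijin-tang, lost it whichever of the 6 libraries compared was left out. How many of all tested genes were lower in all 9 comparisons, or with each extract at 20 µg/mL, was not counted. For HSP90AA1 the 3 values at 20 µg/mL were -0.27 with Soshiho-tang, -0.27 with Yijin-tang and -0.26 with Okbyeongpung-san, with standard errors of 0.05. When any 1 library was left out the calls at 20 µg/mL numbered 2 to 5 for Soshiho-tang, 2 to 7 for Yijin-tang and 2 to 6 for Okbyeongpung-san. At 100 µg/mL Soshiho-tang had 5 calls without its replicate 1 and 6 without its replicate 2 or without vehicle replicate 2. Okbyeongpung-san at 100 µg/mL had 1 call and 0 lower members without its replicate 2, and 4 calls without its replicate 3. Yijin-tang at 500 µg/mL had 7 calls without vehicle replicate 2 or 3.

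In the single Soyo-san libraries the member medians against the vehicle mean were -0.02 at 20, -0.07 at 100 and -0.10 at 500 µg/mL. In 18 members all 3 Soyo-san libraries lay below all vehicle libraries, among them HSPA1A with 210.2, 201 and 236 CPM at 20, 100 and 500 µg/mL, and in 4 members, HSPE1, BAG1, CCT6A and CCT7, they lay above. Such separations were not counted over all tested genes. All Soyo-san libraries are of batch D and all vehicle libraries of batch E, so extract and batch cannot be told apart here. CRYAB had 5.81, 4.91 and 2.62 CPM at 20, 100 and 500 µg/mL, and its log2 ratio of 500 to 20 µg/mL was -1.15. On log2(CPM + 1) 3 members, CRYAB, DNAJB4 and CHORDC1, were lower by over 0.3 at 500 than at 20 µg/mL and 0 were higher by as much, against 4.63% and 5.96% of all tested genes. With 1 library per dose these differences have no replicate check.

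Other chaperone genes outside the 39 were counted in lists written from textbook knowledge, though with earlier results of these data known. The counts are to be read against the 10.2% of all genes called lower and 10.3% called higher at 500 against 20 µg/mL of Soshiho-tang. The testis-enriched HSPA2 was lower at 500 µg/mL of Soshiho-tang, with 39.2 ± 1.80 CPM, against 66.4 ± 1.89 at 20 µg/mL (SD, n = 3 each), and of the other HSP70 genes 3 of 7 tested were lower and 1 higher. HSPA6, an HSP70 gene that is silent in most unstressed cells, had 0.381 ± 0.0591 CPM at 500 µg/mL, against 0.313 ± 0.0678 at 20 µg/mL and 0.674 ± 0.130 in vehicle. Of the other HSP40 genes 3 of 23 were lower and 0 higher, DNAJB5 and DNAJB2 among them, a share near that of all genes, and of the other co-chaperones 5 of 17 were lower and 1, AHSA2P, higher. For the prefoldin complex, which feeds CCT, 2 of 9 were lower than at 20 µg/mL, PFDN1 and VBP1, while 5 of 9 were higher and 0 lower against vehicle. Of 12 other genes of mitochondrial protein folding and proteolysis 2 were higher, the protease gene LONP1 at a log2 fold change of 0.60 ± 0.06 and the HSPA9 exchange factor gene GRPEL2 at 0.43 ± 0.11, and 0 were lower. With 12 genes tested, 2 is a share of 16.7%. Of 12 chaperone genes of the endoplasmic reticulum 6 were higher and 0 lower at 500 than at 20 µg/mL. HSPA5, the HSP70 of that compartment, had 952 ± 30.4 CPM at 500 µg/mL, against 637 ± 9.71 at 20 µg/mL (SD, n = 3 each), and HSP90B1, its HSP90, was higher, at a log2 fold change of 0.13 ± 0.04. Of 3 fibroblast markers tested 1, COL1A1, was lower at 500 µg/mL of Soshiho-tang, with 18.1 ± 2.15 CPM, against 26.8 ± 2.32 at 20 µg/mL and 30.4 ± 1.85 in vehicle (SD, n = 3 each). The summed level of all 6 was 21.6 to 26.7 CPM at 500 µg/mL, against 35.2 to 38.05 CPM in vehicle. COL1A2, DCN, LUM and PDGFRB were under 1 CPM in every library. The part of these markers in the result was not tested.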

How the data were processed

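RNA from A549 cells was made into directional libraries and sequenced in read pairs, per the labels' protocols. The authors' deposited table holds expected counts per Ensembl gene, estimated with RSEM 1.3.3 after FastQC 0.11.9, Trim Galore 0.6.5 and STAR 2.7.3a on hg38 (GRCh38), per the submitters' processing notes; the annotation release and strand setting are not given in the sources used here. The series text says that outlying samples of low RNA were left out by the authors. Between 9.09% and 11.6% of the values in each library were not whole, and all were rounded. The table also has 30 unnamed columns, which are not used here.

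Gene names came from the reference table, which matched 56558 identifiers, and positions and lengths from GENCODE 29. Counts of 27 libraries in 10 groups were scaled by TMM and fitted together in edgeR 4.0.16 (R 4.3.3) by quasi-likelihood after filterByExpr, with p-values adjusted by Benjamini-Hochberg over 17459 genes and a threshold of 0.05. The biological coefficient of variation was 6.89%. CPM uses TMM-scaled totals, TPM the longest transcript of each gene, and library medians log2(CPM + 1). Standard errors are the log2 fold change over the square root of its F statistic. The Soyo-san libraries, 1 per dose, were not fitted. Alternatives were DESeq2 1.42.0, RLE size factors, no low-count filter, a transcript length offset, batch E alone, the groups compared alone, a replicate block and leaving out each library. The fit was also tested on simulated data with 200 changed genes, in which all genes had the same biological coefficient of variation. It missed the first criterion for the number of changed genes recovered. That criterion was then revised to leave out genes of low level.

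The members and the other gene lists were chosen with earlier results of these data known. Values per library are given for members called at 500 µg/mL of Soshiho-tang against both vehicle and 20 µg/mL with an absolute log2 fold change of at least 0.5 in the second, and for HSP90AB1, DNAJB1, HSPB1, HSPD1, BAG3, HSF1 and CCT2 by family. Of each other list at most 2 called genes are named by size, besides HSPA6, HSPA5 and HSP90B1.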

Additional observations from a re-analysis of the deposited data

Results flagged for a closer look

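The effect of 500 against 20 µg/mL differed between Soshiho-tang and Yijin-tang by an interaction term in edgeR for 14 members, each with 3 libraries per dose and extract. The differences, Soshiho-tang minus Yijin-tang on the log2 scale, were -0.99 for HSPA1A, -0.83 for HSPA1B, -0.53 for HSP90AA1, -0.49 for DNAJB4, -0.46 for HSPE1, -0.46 for CHORDC1, -0.38 for HSPH1, -0.37 for DNAJA1, -0.37 for STIP1, -0.32 for TCP1, -0.30 for FKBP4, -0.28 for HSP90AB1 and -0.23 for HSPA4. For HSPA9 the difference was 0.34. The number of members passing lay between 10 and 16 when any 1 library was left out.

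In the Soyo-san libraries, which enter no test, HSPE1 was above all 3 vehicle libraries at each dose, and at 20 µg/mL its log2 ratio to the vehicle mean was 0.41. That dose has 1 library, of batch D, while the vehicle libraries are of batch E.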

How the results depend on the processing

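Of 193 calls of single members, 193 kept direction and threshold under DESeq2, RLE size factors and the replicate block, 191 under a transcript length offset, 177 in batch E alone, 173 without the low-count filter and 170 with the groups compared alone. Over all fits that left out 1 library 941 calls were kept, 249 lost and 0 reversed. The counts of members called that moved by over 1.5 times were these, and the cause was not tested. For Okbyeongpung-san at 20 µg/mL against vehicle (8) there were 13 with the replicate block, 13 with the length offset and 23 with the groups compared alone. For its 100 µg/mL dose (10) there were 23 with the groups alone, and for its 500 µg/mL dose (10) 4 with the groups alone. For its 500 against 20 µg/mL (2) there were 4 without the filter, 6 with the replicate block, 4 with the length offset, 6 by DESeq2 and 0 with the groups alone. Its counts in batch E also moved, down at 20 and 100 µg/mL and up at 500 against 20 µg/mL. Batch E holds 1 Okbyeongpung-san library per dose, so batch and group size cannot be told apart there. With the groups alone Soshiho-tang at 20 µg/mL had 15 in place of 8, and Soshiho-tang against Okbyeongpung-san at 500 µg/mL had 9 in place of 20. Leaving out 1 library gave ranges against vehicle of 2 to 5, 5 to 11 and 24 to 24 for Soshiho-tang at 20, 100 and 500 µg/mL, of 2 to 7, 7 to 8 and 7 to 9 for Yijin-tang, and of 2 to 6, 1 to 9 and 8 to 13 for Okbyeongpung-san. For 500 against 20 µg/mL the ranges were 25 to 29 in Soshiho-tang, 0 to 0 in Yijin-tang and 0 to 17 in Okbyeongpung-san. They were 21 to 27 for Soshiho-tang against Yijin-tang, 15 to 20 against Okbyeongpung-san and 10 to 16 for the interaction. The member median changed sign for Yijin-tang at 500 µg/mL against vehicle, at 0.002 without the filter in place of -0.031, and against 20 µg/mL, at 0.015 without replicate 3 at 20 µg/mL in place of -0.039. Without replicate 1 at 20 µg/mL the second median was -0.068. Over all genes, same-numbered libraries correlated in their deviations from the group means at a median of 0.0189 over 111 pairs, with 19 pairs over 0.1, and the numbers were not taken as pairs. These pairs include vehicle and Okbyeongpung-san libraries, whose names share no set with those of Soshiho-tang and Yijin-tang. Within Soshiho-tang and Yijin-tang, whose library names share a set per number, 20 of 45 same-numbered pairs were over 0.1 across all genes and 28 of 45 across the members. Of 90 differently numbered pairs there, 21 and 28 were over 0.1. The medians were 0.087 against -0.032 across all genes and 0.214 against -0.186 across the members. A shared component by number in these genes is thus a hint from the data, and the main fit left it out. With the replicate block 193 of the 193 calls stood. Depth limits DNAJA4, with as few as 3 counts in a library, and 2 libraries per dose limit Okbyeongpung-san.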
